A study of Mus musculus with 10 samples.

Results

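The collagen genes are the 44 genes, of 55291 in the deposited count table, whose symbol is written as Col, a type number, the letter a and a chain number, such as Col1a1. They were chosen by symbol alone, and they were followed across the 4 groups of a mouse liver experiment. Each of them codes for a chain of a collagen, and the 44 were read in 8 classes by the structure their protein forms. Of the 44 genes, 33 averaged 10 or more counts across the 10 livers and were taken as well measured. The same 33 genes passed the filter on low counts and were tested.

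The experiment asked how losing Bap1, a nuclear deubiquitinase, in hepatocytes alters the response of the liver to damage by carbon tetrachloride (CCl4). All mice were female, 16 to 20 weeks of age, and carried a Cas9 gene behind a Lox-Stop-Lox cassette. All received an AAV8 virus that encodes a guide RNA and a Cre driven by the Tbg promoter, which is active in hepatocytes, so that cells without Cre keep the cassette and do not make Cas9. The guide was either non-targeting (NTC) or directed at Bap1 (sgBap1), and 10 days later the mice were injected intraperitoneally with CCl4, 1 part in 9 parts of olive oil at 10 µL per g of body weight, or with olive oil vehicle. RNA from the right lobe was sequenced 48 h after the injection from 10 livers. They comprised 2 with the control guide and vehicle (NTC-Veh), 2 with the Bap1 guide and vehicle (sgBap1-Veh), 3 with the control guide and CCl4 (NTC-CCl4) and 3 with the Bap1 guide and CCl4 (sgBap1-CCl4). The RNA is from bulk tissue, so fewer cells of a type and less RNA per cell cannot be told apart.

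Collagen chains wind around each other into a triple helix and are hydroxylated, secreted, trimmed and crosslinked into fibrils or networks. In the liver, hepatic stellate cells and portal fibroblasts are the known source of the fibrillar collagens after injury, whereas type IV collagen also underlies vessels and ducts, and hepatocytes make type XVIII collagen. CCl4 is converted by liver enzymes into a radical that kills hepatocytes around the central veins, and stellate cells then turn into collagen-secreting myofibroblasts.

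The 10 libraries held between 33047900 and 52199900 estimated counts, at which 3 counts correspond to at most 0.112 CPM (counts per 1000000, on TMM-normalised library sizes, which scale out differences in composition). Bap1 was at 34.8 and 34.8 CPM in the NTC-Veh livers, 17.5 and 19.5 in sgBap1-Veh, 30.1, 31.5 and 29.5 in the NTC-CCl4 livers, and 17, 21.8 and 19.1 in sgBap1-CCl4. Every sgBap1 liver lay below every NTC liver, with log2 fold changes of -0.91 ± 0.12 in vehicle and -0.65 ± 0.10 after CCl4 (adjusted p = 0.0172 and 0.0307). Markers of hepatocytes (Alb at 55000 CPM or more in every liver) and of stellate cells (Reln at 47.6 CPM or more) were present in all 10 livers. The library of sgBap1-CCl4 replicate 2 stood apart. It held 144 CPM of Cfd, 36.4 of Adipoq, 34.5 of Plin1 and 17.7 of Retn, which fat cells express, against at most 0.0425 CPM of any of these in the other 9 livers. It was also the highest of the 10 livers for 21 of the 33 tested collagen genes. It was kept, and values without it are given beside the changes with CCl4 named here that it moved by over 1.5 times on the linear scale, or whose call it changed. The part that these fat cell genes play in its collagen values was not tested. At the other end, NTC-Veh replicate 1 was the lowest of the 10 livers for 13 of the 33 genes and held 1.69 CPM of 6 summed mesothelial markers (Msln at 0.136 CPM), against 5.5 to 22.8 CPM in the other livers. The part of those markers in its collagen levels was not tested either. How often these livers were highest or lowest over all tested genes was not counted, so the 21 and 13 of 33 are not read as particular to collagens. Over tested genes, sgBap1-CCl4 replicate 2 differed most from its replicates (mean chi-square of counts per gene 61.3 and 90.1, against 15.5 to 51.5 for other pairs within a group).

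Col18a1, the chain of a heparan sulfate-bearing basement membrane collagen, dominated the collagen transcripts of the undamaged liver. Its share of all collagen counts was 86.1% and 83.2% in NTC-Veh, 79.5% and 80.2% in sgBap1-Veh, 38.1%, 33.1% and 34.4% in NTC-CCl4, and 31.7%, 13.1% and 40.6% in sgBap1-CCl4. The summed level of all 44 genes was 1408 and 1489 CPM in NTC-Veh, 1373 and 1326 CPM in sgBap1-Veh, 1407, 1588 and 1408 CPM in NTC-CCl4, and 1521, 2621 and 1253 in sgBap1-CCl4. The sums of the groups thus overlapped, with only sgBap1-CCl4 replicate 2 far from the rest. Without Col18a1, the sum was 195 to 282 CPM in the 4 vehicle livers and 744 to 2277 CPM in the 6 CCl4 livers, or at most 1062 CPM when replicate 2 of sgBap1-CCl4 is left out. The make-up of the collagen transcripts thus differed between treatments while their totals overlapped. With library size alone as the scale, the totals did move, from 1187 CPM in NTC-Veh to 1667 CPM in NTC-CCl4 on average.

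**Figure D1:**
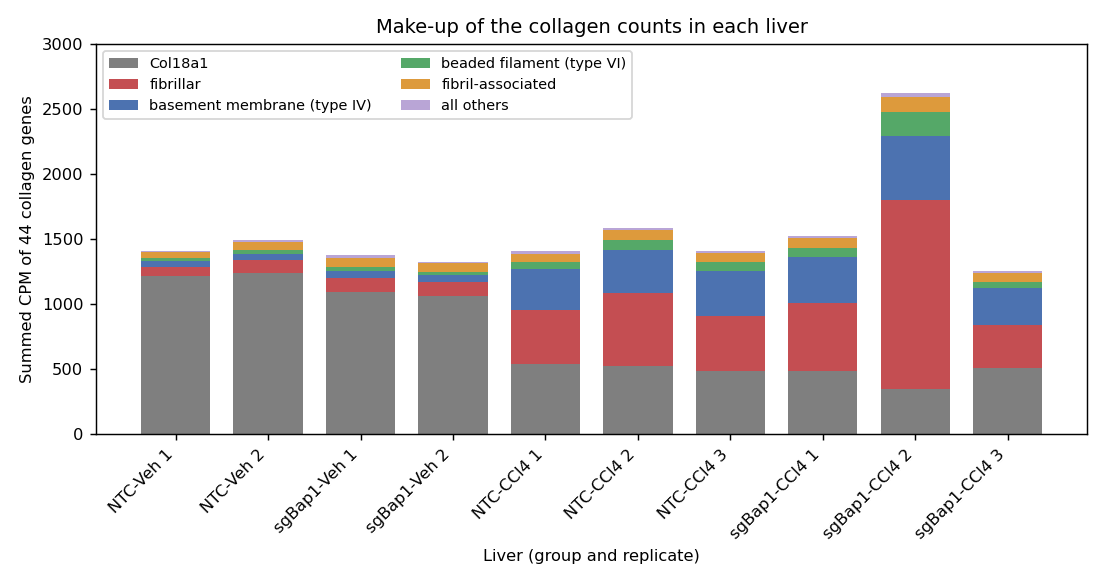
Summed CPM (vertical axis) of the 44 collagen genes in each liver (horizontal axis), stacked by Col18a1 and by class. Col18a1 fills 79.5% to 86.1% of each vehicle bar and 13.1% to 40.6% of each CCl4 bar, and the total stays between 1253 and 1588 CPM except in sgBap1-CCl4 replicate 2, where it is 2621.

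Per kilobase of exon, with the exons of all annotated transcripts of a gene joined, Col18a1 led in every group. Its means were 175 CPM per kb in NTC-Veh, 153 in sgBap1-Veh, 73.4 in NTC-CCl4 and 63.4 in sgBap1-CCl4. The transcripts in use can be shorter than this joined length, which was 12426 bases for Col1a2 and 6563 for Col1a1. The order of the genes below Col18a1 is therefore approximate. The next genes in the NTC-Veh livers were Col14a1 at 6.37, Col4a1 at 3.38 and Col4a2 at 2.78 CPM per kb, and the ranges of Col4a1 and Col4a2 overlapped (3.06 to 3.70 and 2.41 to 3.14). In the NTC-CCl4 livers Col4a1 followed Col18a1 at 27.5 CPM per kb, before Col4a2 at 18.2, Col3a1 at 17.6 and Col1a1 at 17.2, the last 3 with overlapping ranges. Col1a1 was not among the 8 highest collagen genes of either vehicle group.

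At 48 h after CCl4, the genes of the type I and III chains, of Col4a1 and Col4a2 and of Col6a3 were higher, while Col18a1 and some chains with low levels were lower. In NTC-CCl4 against NTC-Veh, 18 of the 33 tested genes passed an adjusted p of 0.05, 13 of them higher and 5 lower. Over all 17015 tested genes, 53.8% passed, 27.5% higher and 26.3% lower. In sgBap1-CCl4 against sgBap1-Veh, 20 of the 33 genes passed, 12 higher and 8 lower, against 56.7% of all tested genes, 29.0% higher and 27.7% lower. The shares of collagen genes that passed, 18 and 20 of 33, were thus near those of the whole transcriptome. The log2 fold changes of the 33 genes had medians of 0.50 in NTC and 0.86 in sgBap1 livers, beside 0.03 and 0.04 over all tested genes. Both comparisons called the same 12 genes higher and the same 5 lower. Col15a1 was called higher with NTC alone, and Col27a1, Col4a3 and Col5a3 were called lower with sgBap1 alone. None of these 4 differences between guides passed the interaction test (adjusted p = 0.565, 0.505, 0.893 and 0.529). When sgBap1-CCl4 replicate 2 was left out, 18 genes passed in the NTC comparison and 21 in the sgBap1 comparison (12 higher and 9 lower, Col23a1 added), and the sgBap1 median fell to 0.22. When library size alone was the scale, the median of all genes moved to 0.50 and 0.52, and the split was 15 higher and 3 lower with NTC and 13 higher and 3 lower with sgBap1. On that scale Col24a1 and Col4a4 with NTC, and Col25a1, Col27a1, Col4a3, Col4a4 and Col5a3 with sgBap1, kept negative values but did not pass.

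The calls rested on 2 vehicle livers per guide. Without NTC-Veh replicate 1, 12 genes passed with NTC (7 higher), and Col1a2, Col3a1, Col6a3, Col6a6, Col8a1 and Col15a1 had values of 2.45, 2.74, 1.73, 2.32, 1.16 and 1.31 with adjusted p of 0.0804, 0.0516, 0.111, 0.131, 0.125 and 0.117. Without sgBap1-Veh replicate 2, 13 genes passed with sgBap1 (9 higher), and Col1a2, Col6a3 and Col6a6 had values of 3.08, 2.24 and 2.41 with adjusted p of 0.0564, 0.0671 and 0.0755. The directions of these rises did not change. Single livers also decided the NTC call of Col6a6 (adjusted p up to 0.144 without NTC-Veh replicate 2) and the sgBap1 call of Col25a1 (adjusted p up to 0.0785 without sgBap1-Veh replicate 1).

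**Figure D2:**
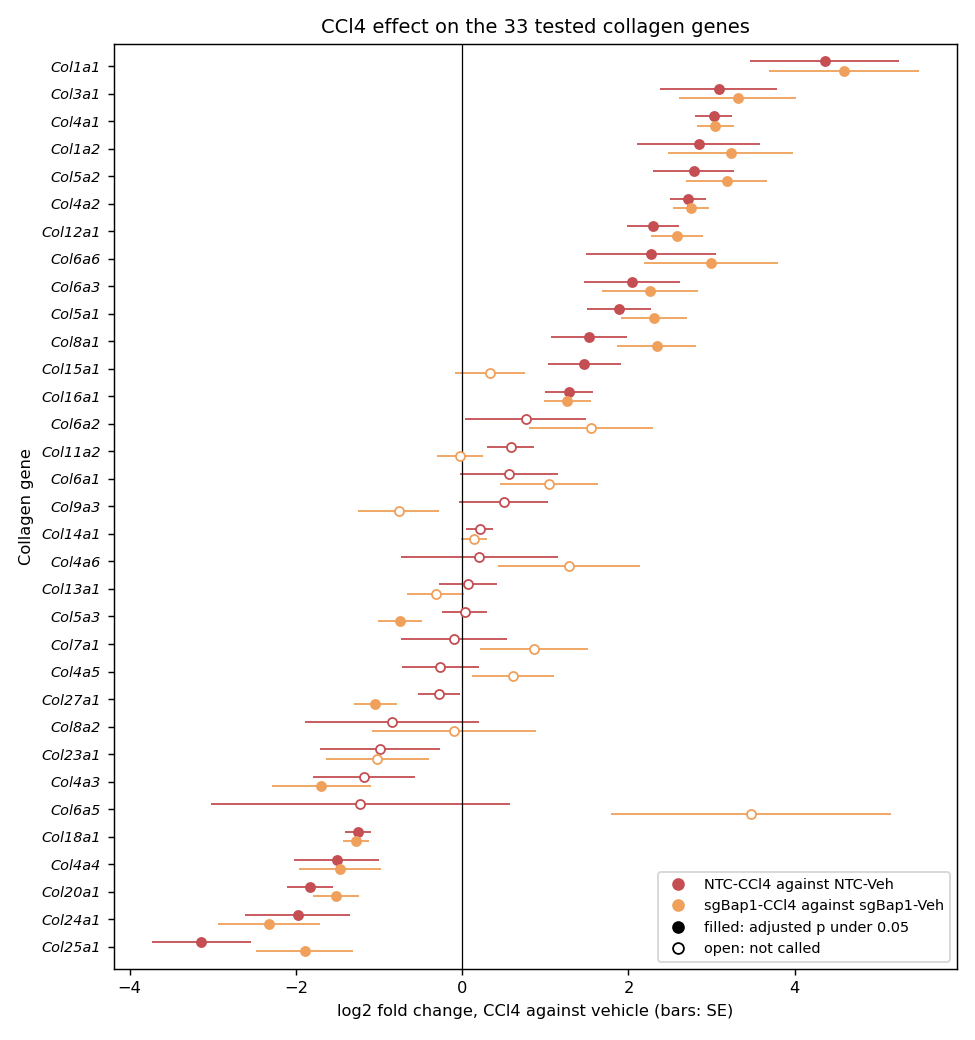
Log2 fold change with CCl4 (horizontal axis, bars are SE) of each of the 33 tested collagen genes (vertical axis), in NTC (red) and sgBap1 (orange) livers, with filled points for an adjusted p under 0.05. Col1a1 has the highest value with either guide, at 4.36 and 4.59. Col25a1 has the lowest with NTC, at -3.14, on only 7, 6 and 1 counts in the NTC-CCl4 livers.

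Among the fibrillar chains, whose molecules pack side by side into the fibrils of scar and skin, 5 of the 9 tested rose with either guide. Col1a1 codes for the major chain of type I collagen (ENSMUSG00000001506.10, chr11:94936224-94953042, + strand of GRCm38). It was at 3.43 and 7.57 CPM in the NTC-Veh livers, 11.3 and 5.24 in sgBap1-Veh, 93.1, 143 and 102 in the NTC-CCl4 livers, and 135, 402 and 71.2 in sgBap1-CCl4. Every CCl4 liver exceeded every vehicle liver, and the 3 sgBap1-CCl4 livers spread around those of NTC-CCl4. The log2 fold change was 4.36 ± 0.90 (SE) in NTC livers (adjusted p = 0.00494) and 4.59 ± 0.90 in sgBap1 livers (adjusted p = 0.00367), the latter 3.61 ± 0.58 without sgBap1-CCl4 replicate 2 (adjusted p = 0.00286).

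Col1a2, the partner chain of type I collagen (chr6:4504814-4541544, + strand), was at 8.44 and 16.3 CPM in the NTC-Veh livers, 17.8 and 14.2 in sgBap1-Veh, 77.8, 105 and 83.2 in the NTC-CCl4 livers, and 95.7, 297 and 57.7 in sgBap1-CCl4. It rose by 2.85 ± 0.74 on the log2 scale with NTC (adjusted p = 0.0138) and by 3.23 ± 0.75 with sgBap1 (adjusted p = 0.00804), again without overlap of treatments. Col3a1, the chain of type III collagen that is laid down early in wounds (chr1:45311538-45349706, + strand), was at 14.9 and 25.8 CPM in the NTC-Veh livers, 36.8 and 23.7 in sgBap1-Veh, 159, 205 and 154 in the NTC-CCl4 livers, and 194, 584 and 126 in sgBap1-CCl4. Its rise was 3.08 ± 0.70 with NTC (adjusted p = 0.00696) and 3.31 ± 0.70 with sgBap1 (adjusted p = 0.0049), and the lowest CCl4 liver had more than 3 times the level of the highest vehicle liver. The sgBap1 values without sgBap1-CCl4 replicate 2 were 2.26 ± 0.37 for Col1a2 and 2.40 ± 0.36 for Col3a1 (adjusted p = 0.00211 and 0.00113).

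The promoters of these genes are shown because Col1a2 and Col3a1 moved together, and none is printed for Col1a1. The windows run from 250 bases before to 50 after the annotated start in RefSeq (GRCm38.p6), and 35 of the 44 genes had at least 1, giving 38 promoters. Capitals mark, on either strand (as the reverse complement where it is the other), TATAAA (the TATA box), CCAAT (the CCAAT box), GGGCGG (a GC box) and TGANTCA (an AP-1 site), and no 2 of these motifs overlapped in the windows printed. In the Col1a2 window (chr6:4505368-4505667, + strand) they mark 2 CCAAT motifs and 2 GC boxes. Of the CCAAT motifs, 1 lies at position -109 and 1 begins at the annotated start itself. In the Col3a1 window (chr1:45311288-45311587, + strand) they mark 1 TATAAA, at position -117 from the start. Whether these motifs act as promoter boxes was not tested.
Col1a2: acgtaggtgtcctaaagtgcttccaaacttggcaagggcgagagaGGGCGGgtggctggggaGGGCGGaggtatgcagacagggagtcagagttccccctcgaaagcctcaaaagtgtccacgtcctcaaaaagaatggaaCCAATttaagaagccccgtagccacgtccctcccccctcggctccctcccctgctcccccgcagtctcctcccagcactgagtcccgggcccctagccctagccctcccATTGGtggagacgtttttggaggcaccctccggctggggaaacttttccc
Col3a1: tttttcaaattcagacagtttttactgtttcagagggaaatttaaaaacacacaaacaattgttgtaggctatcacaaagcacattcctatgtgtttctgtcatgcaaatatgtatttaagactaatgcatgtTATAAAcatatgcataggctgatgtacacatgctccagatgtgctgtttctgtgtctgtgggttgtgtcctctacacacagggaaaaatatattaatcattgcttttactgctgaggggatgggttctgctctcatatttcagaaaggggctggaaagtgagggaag

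The Col1a2 and Col3a1 windows shared none of the 4 motifs. Among the 38 collagen promoters, TATAAA was found in 13.2% (13.6% of all 32851 RefSeq promoters of this length), CCAAT in 34.2% (37.4%), GGGCGG in 60.5% (35.7%) and TGANTCA in 2.63% (7.81%). These are descriptions of the letters alone.

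The type V chains, which are built into type I fibrils and set their width, rose with both guides for 2 of the 3 genes. Col5a1 was at 9.86 and 11.8 CPM in the NTC-Veh livers, 12 and 10.2 in sgBap1-Veh, 36.7, 48.1 and 35.4 in the NTC-CCl4 livers, and 47.5, 85.2 and 32.3 in sgBap1-CCl4. Col5a2 was at 3 and 4.41 CPM in the NTC-Veh livers, 4.52 and 4.34 in sgBap1-Veh, 23.2, 26.6 and 26.8 in the NTC-CCl4 livers, and 32, 67.1 and 21.6 in sgBap1-CCl4. Neither gene had a CCl4 liver within the range of the vehicle livers. Col5a2 rose by 2.79 ± 0.49 with NTC and 3.18 ± 0.49 with sgBap1 (adjusted p = 0.00158 and 0.00076), and Col5a1 by 1.89 ± 0.39 and 2.30 ± 0.40 (adjusted p = 0.00364 and 0.00132). The remaining type V gene did not follow them. Col5a3 was at 11.9 and 8.54 CPM in the NTC-Veh livers, 10.3 and 19.1 in sgBap1-Veh, 8.89, 12.3 and 10.2 in the NTC-CCl4 livers, and 8.46, 10.4 and 7.27 in sgBap1-CCl4, with overlap between vehicle and CCl4 under both guides. Its log2 fold change was 0.03 ± 0.27 with NTC (adjusted p = 0.93) and -0.75 ± 0.27 with sgBap1 (adjusted p = 0.0372), and without sgBap1-Veh replicate 2, the highest of the 10 livers, the latter was -0.24 (adjusted p = 0.473).

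Col27a1 and Col24a1, fibrillar chains known mainly from cartilage and bone, were lower or not called. Col27a1 was at 15.8 and 19.9 CPM in the NTC-Veh livers, 13.8 and 24.5 in sgBap1-Veh, 16.2, 16.3 and 11.6 in the NTC-CCl4 livers, and 7.95, 8.75 and 11.1 in sgBap1-CCl4. With sgBap1 the CCl4 livers were all below the vehicle livers (-1.04 ± 0.25, adjusted p = 0.00612, and -0.57 with adjusted p = 0.0792 without sgBap1-Veh replicate 2), whereas with NTC the groups overlapped (-0.28 ± 0.25, adjusted p = 0.382). Col24a1 had a mean of only 11.2 counts, with 0.245 to 0.721 CPM in vehicle and 0.0681 to 0.205 CPM in CCl4 livers, and was called lower with both guides (-1.98 ± 0.63 and -2.32 ± 0.61, adjusted p = 0.0223 and 0.00824). Without NTC-Veh replicate 2 its NTC value was -1.01 (adjusted p = 0.319), and without sgBap1-CCl4 replicate 2 its sgBap1 value was -2.97 ± 0.68 (adjusted p = 0.0042). Col11a2 was not called (0.789 to 1.85 CPM over the 10 livers), and Col2a1 and Col11a1, the other cartilage chains, had means under 1 count.

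**Figure D3:**
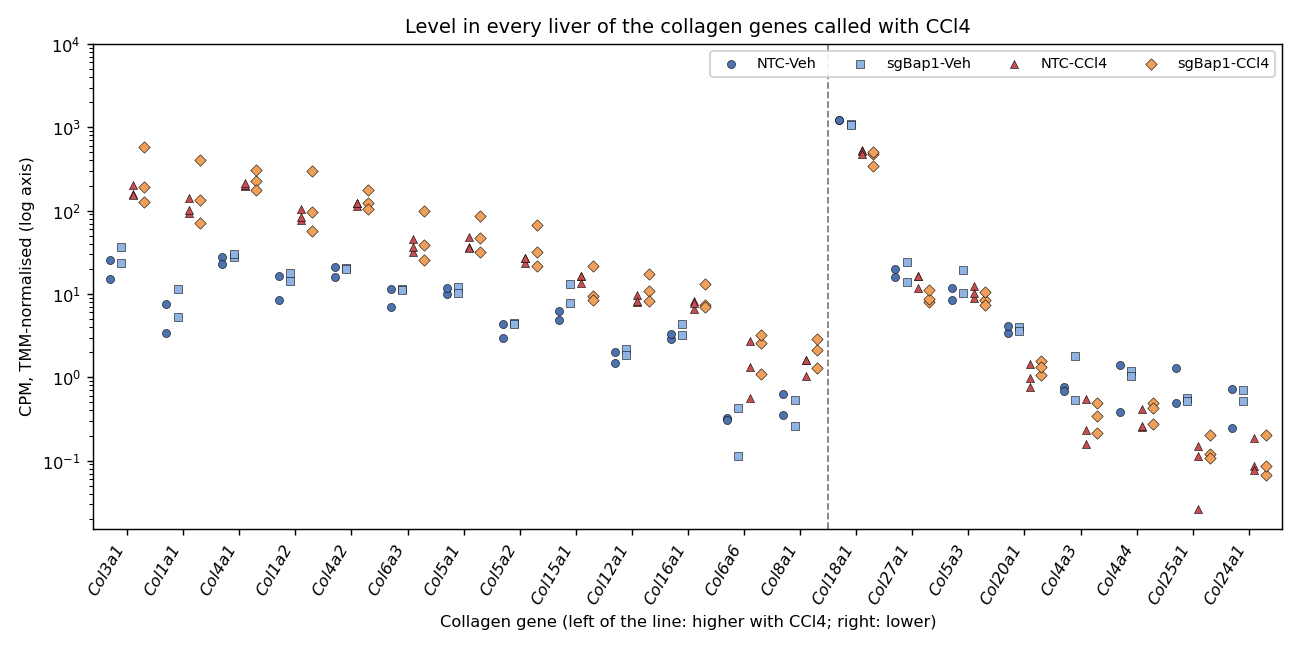
CPM in every liver (vertical log axis, each point 1 liver, colour and shape by group) for the 21 collagen genes called with CCl4 under at least 1 guide. The 13 genes left of the dashed line were called higher and the 8 right of it lower, and sgBap1-CCl4 replicate 2 is the uppermost diamond of every gene on the left.

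Of the 6 type IV chains, which form the network of basement membranes, the ubiquitous pair Col4a1 and Col4a2 rose with either guide, Col4a4 was called lower with both guides and Col4a3 with sgBap1 alone. Col4a1 (chr8:11198423-11312826, - strand) was at 27.6 and 22.8 CPM in the NTC-Veh livers, 27.6 and 30.3 in sgBap1-Veh, 199, 206 and 212 in the NTC-CCl4 livers, and 227, 312 and 178 in sgBap1-CCl4. Col4a2 (chr8:11312805-11449287, + strand) was at 20.8 and 16 CPM in the NTC-Veh livers, 20.4 and 19.7 in sgBap1-Veh, 114, 122 and 125 in the NTC-CCl4 livers, and 125, 176 and 104 in sgBap1-CCl4. Treatments did not overlap for either gene. Col4a1 rose by 3.03 ± 0.22 with NTC and 3.04 ± 0.22 with sgBap1 (adjusted p = 4.15e-06 and 3.73e-06), and Col4a2 by 2.71 ± 0.22 and 2.75 ± 0.22 (adjusted p = 7.96e-06 and 6.97e-06), the collagen genes with the smallest adjusted p in both comparisons.

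These genes lie head to head on chromosome 8, with annotated starts 21 bases apart (GENCODE vM21), so their promoter windows overlap and are shown together. The Col4a1 window (chr8:11312777-11313076, - strand) and the Col4a2 window (chr8:11312555-11312854, + strand) are each printed in the direction of their own gene, with motifs in capitals as above.
Col4a1: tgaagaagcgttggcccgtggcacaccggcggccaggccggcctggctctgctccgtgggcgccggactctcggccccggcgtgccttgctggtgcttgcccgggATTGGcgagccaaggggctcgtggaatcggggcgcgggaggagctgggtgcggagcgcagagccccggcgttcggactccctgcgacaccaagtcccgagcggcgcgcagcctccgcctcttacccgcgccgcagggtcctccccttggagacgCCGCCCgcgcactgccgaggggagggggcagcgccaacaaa
Col4a2: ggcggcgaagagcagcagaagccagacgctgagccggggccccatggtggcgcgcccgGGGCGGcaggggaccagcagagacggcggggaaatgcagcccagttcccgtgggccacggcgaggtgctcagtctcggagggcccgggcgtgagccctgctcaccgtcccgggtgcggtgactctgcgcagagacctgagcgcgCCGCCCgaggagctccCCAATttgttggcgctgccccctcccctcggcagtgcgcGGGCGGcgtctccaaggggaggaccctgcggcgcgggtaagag

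Each window held 1 CCAAT box, which in the Col4a2 window begins at position -32 from the start. The GC boxes numbered 1 in the Col4a1 window and 3 in that of Col4a2, and neither window held TATAAA. The GC box of the Col4a1 window is the last of the Col4a2 window, read on the other strand. Because the annotated genes overlap at their starts on opposite strands, and the strand setting of the counting is not given in the sources used here, reads from the overlap cannot be told apart, although the overlap is short beside the genes.

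Col4a3 and Col4a4, chains best known from the kidney filter, are a second head-to-head pair, with starts 72 bases apart on chromosome 1. Col4a4 was at 0.381 and 1.39 CPM in the NTC-Veh livers, 1.18 and 1.05 in sgBap1-Veh, 0.256, 0.263 and 0.416 in the NTC-CCl4 livers, and 0.494, 0.428 and 0.276 in sgBap1-CCl4. It was called lower with NTC (-1.51 ± 0.51, adjusted p = 0.0286) and sgBap1 (-1.47 ± 0.49, adjusted p = 0.026), but the NTC groups overlapped through NTC-Veh replicate 1, and without NTC-Veh replicate 2 the value was -0.30 (adjusted p = 0.657). Col4a3 was at 0.762 and 0.693 CPM in the NTC-Veh livers, 0.538 and 1.80 in sgBap1-Veh, 0.234, 0.545 and 0.156 in the NTC-CCl4 livers, and 0.341, 0.496 and 0.213 in sgBap1-CCl4. It passed with sgBap1 alone (-1.69 ± 0.59, adjusted p = 0.0324), and without sgBap1-Veh replicate 2 the value was -0.61 (adjusted p = 0.489). Both had means under 25 counts. Col4a5 and Col4a6, a head-to-head pair on the X chromosome, were not called and ranged from 1.86 to 6.51 CPM and from 0.128 to 1.15 CPM.

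Type VI collagen forms beaded filaments between fibrils and cells, from Col6a1, Col6a2 and a further chain that is usually Col6a3. Only Col6a3 and one of its alternatives were called higher. Col6a3 was at 7.02 and 11.4 CPM in the NTC-Veh livers, 11.6 and 11.2 in sgBap1-Veh, 31.9, 45.2 and 37.1 in the NTC-CCl4 livers, and 38.8, 99 and 25.7 in sgBap1-CCl4, with no CCl4 liver inside the vehicle range (2.04 ± 0.58 with NTC and 2.26 ± 0.58 with sgBap1, adjusted p = 0.019 and 0.012). Col6a1 was at 6.62 and 13.7 CPM in the NTC-Veh livers, 12.5 and 9.77 in sgBap1-Veh, 10.9, 15.9 and 18.4 in the NTC-CCl4 livers, and 15.6, 41.8 and 11.5 in sgBap1-CCl4. Col6a2 was at 3.35 and 8.40 CPM in the NTC-Veh livers, 6.30 and 5.01 in sgBap1-Veh, 6.95, 10.6 and 12.4 in the NTC-CCl4 livers, and 9.79, 33.3 and 6.70 in sgBap1-CCl4. The treatments overlapped for both chains with NTC, and neither was called (0.57 ± 0.59 and 1.04 ± 0.59 for Col6a1, 0.76 ± 0.73 and 1.55 ± 0.75 for Col6a2, the lowest adjusted p = 0.113). With sgBap1 the treatments overlapped for Col6a1, whereas for Col6a2 every CCl4 liver was above every vehicle liver. With errors of this size, the lack of a call does not exclude a rise. NTC-Veh replicate 1 was the lowest and sgBap1-CCl4 replicate 2 the highest of the 10 livers for both chains. Without the latter, the sgBap1 values were 1.50 ± 0.28 for Col6a3 (adjusted p = 0.0024), 0.28 ± 0.37 for Col6a1 and 0.54 ± 0.44 for Col6a2 (adjusted p = 0.563 and 0.342).

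Col6a6, an alternative to Col6a3, was at 0.327 and 0.305 CPM in the NTC-Veh livers, 0.431 and 0.112 in sgBap1-Veh, 1.34, 0.564 and 2.73 in the NTC-CCl4 livers, and 2.57, 3.22 and 1.08 in sgBap1-CCl4 and was called higher with both guides (2.27 ± 0.78 and 3.00 ± 0.80, adjusted p = 0.0336 and 0.0103). Col6a5 was at or under 0.513 CPM in 9 livers and at 7.65 CPM in sgBap1-CCl4 replicate 2, and was not called. These neighbouring genes on chromosome 9 share 3.42% to 3.54% of their 50-base stretches, so part of their reads is assigned with uncertainty. Col6a4 had a mean of 2.2 counts and was not tested.

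Fibril-associated chains sit on the surface of fibrils. Col12a1, known from tissue under tension, was at 2.02 and 1.5 CPM in the NTC-Veh livers, 2.21 and 1.83 in sgBap1-Veh, 8.10, 9.68 and 8.12 in the NTC-CCl4 livers, and 10.9, 17.2 and 8.27 in sgBap1-CCl4, and rose by 2.30 ± 0.31 and 2.58 ± 0.31 (adjusted p = 0.000166 and 7.51e-05). Col16a1 was at 2.89 and 3.30 CPM in the NTC-Veh livers, 4.33 and 3.26 in sgBap1-Veh, 6.61, 8.30 and 7.73 in the NTC-CCl4 livers, and 7.27, 13.1 and 7.01 in sgBap1-CCl4, and rose by 1.29 ± 0.28 and 1.26 ± 0.28 (adjusted p = 0.00342 and 0.00345). In neither gene did a CCl4 liver fall within the vehicle range. Col14a1, next after Col18a1 in the vehicle livers per kilobase of annotated exon, did not pass. It was at 39.2 and 50.1 CPM in the NTC-Veh livers, 57.7 and 57.9 in sgBap1-Veh, 47.7, 57.3 and 49.9 in the NTC-CCl4 livers, and 57.8, 78.1 and 55.4 in sgBap1-CCl4, with log2 fold changes of 0.21 ± 0.16 and 0.14 ± 0.16 (adjusted p = 0.294 and 0.472). Col20a1 fell instead. It was at 3.38 and 4.16 CPM in the NTC-Veh livers, 3.97 and 3.56 in sgBap1-Veh, 1.43, 0.977 and 0.755 in the NTC-CCl4 livers, and 1.06, 1.56 and 1.32 in sgBap1-CCl4, with changes of -1.83 ± 0.28 and -1.52 ± 0.27 (adjusted p = 0.000297 and 0.000858). Col9a3 was not called, and Col9a1, Col9a2, Col19a1 and Col22a1 were not well measured.

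The multiplexin genes went opposite ways with NTC. Col18a1 (ENSMUSG00000001435.15, chr10:77052178-77166548, - strand) was at 1213 and 1239 CPM in the NTC-Veh livers, 1092 and 1063 in sgBap1-Veh, 536, 526 and 485 in the NTC-CCl4 livers, and 482, 344 and 509 in sgBap1-CCl4. All 6 CCl4 livers were below all 4 vehicle livers, and the fall was -1.25 ± 0.16 with NTC and -1.27 ± 0.16 with sgBap1 (adjusted p = 8.91e-05 and 7.41e-05). Scaling by library size alone left -0.78 with NTC, still past the threshold. Of 8 hepatocyte markers, 7 were called lower with NTC and 4 with sgBap1 (medians -0.95 and -0.63). Over all tested genes, 26.3% were called lower with NTC and 27.7% with sgBap1, and the 4 of 8 is not read as above its share. The summed level of these markers was 116700 to 162700 CPM in vehicle and 67710 to 87100 CPM in CCl4 livers. The part of these markers' fall in that of Col18a1 was not tested.

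Col18a1 has 2 promoters in RefSeq, and the counts sum over both, so a change in use of either cannot be seen here. They are shown because this gene carries most collagen counts of the vehicle liver. The upstream window (chr10:77166481-77166780, - strand) held 1 CCAAT box and 3 GC boxes, and the downstream window (chr10:77113656-77113955, - strand) none of the 4 motifs.
Col18a1 upstream: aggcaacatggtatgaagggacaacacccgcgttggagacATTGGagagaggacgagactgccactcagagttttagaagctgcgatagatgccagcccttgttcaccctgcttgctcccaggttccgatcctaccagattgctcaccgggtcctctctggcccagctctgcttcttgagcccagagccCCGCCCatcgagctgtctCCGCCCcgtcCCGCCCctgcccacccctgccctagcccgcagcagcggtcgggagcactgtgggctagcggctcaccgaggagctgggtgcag
Col18a1 downstream: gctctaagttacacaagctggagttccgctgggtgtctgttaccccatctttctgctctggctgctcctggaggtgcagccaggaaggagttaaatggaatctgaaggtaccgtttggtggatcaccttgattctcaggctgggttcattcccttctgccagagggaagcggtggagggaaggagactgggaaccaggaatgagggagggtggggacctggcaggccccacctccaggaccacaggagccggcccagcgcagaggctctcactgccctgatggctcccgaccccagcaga

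Slc19a1 and Gm7775 lie on the strand opposite to parts of Col18a1, so the limit on strand given for Col4a1 applies to it too. Its paralogue Col15a1, a chain of vessel and muscle basement membranes, was at 4.93 and 6.26 CPM in the NTC-Veh livers, 13.1 and 7.82 in sgBap1-Veh, 16.3, 16.6 and 13.6 in the NTC-CCl4 livers, and 9.38, 21.9 and 8.40 in sgBap1-CCl4. With NTC the CCl4 livers were all higher (1.47 ± 0.44, adjusted p = 0.0209), whereas with sgBap1 the treatments overlapped (0.33 ± 0.42, adjusted p = 0.522), and the difference between the guides was -1.14 ± 0.59 (adjusted p = 0.565). Without sgBap1-CCl4 replicate 2, the highest liver for this gene, its CCl4 value with sgBap1 was -0.24 ± 0.22 (adjusted p = 0.393). Col15a1 was then at -0.80 ± 0.20 in sgBap1-CCl4 against NTC-CCl4 (adjusted p = 0.228).

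Of the remaining chains, Col8a1, a network-forming chain of vessel walls, was at 0.354 and 0.637 CPM in the NTC-Veh livers, 0.538 and 0.262 in sgBap1-Veh, 1.60, 1.63 and 1.04 in the NTC-CCl4 livers, and 2.11, 2.86 and 1.27 in sgBap1-CCl4. It rose by 1.52 ± 0.46 and 2.34 ± 0.47 (adjusted p = 0.016 and 0.0018) without overlap of treatments. Col25a1, a transmembrane chain known from nerve and brain, was at 0.49 and 1.30 CPM in the NTC-Veh livers, 0.565 and 0.524 in sgBap1-Veh, 0.149, 0.113 and 0.026 in the NTC-CCl4 livers, and 0.119, 0.205 and 0.106 in sgBap1-CCl4 and fell by 3.14 ± 0.59 with NTC and by 1.89 ± 0.58 with sgBap1 (adjusted p = 0.00125 and 0.0182), on a mean of 13.8 counts. The NTC-CCl4 livers held only 7, 6 and 1 counts of Col25a1, so the size of its fall with NTC rests on values near the limit of 3 counts. Col13a1, Col23a1, Col8a2 and Col7a1 were tested and not called, with levels between 0.0272 and 4.79 CPM. Col23a1 passed as lower with sgBap1 without sgBap1-CCl4 replicate 2 (-1.73 ± 0.62, adjusted p = 0.0381, against -1.02 ± 0.62 and 0.183 with it). Of the 11 genes that were not well measured, Col10a1, Col19a1 and Col26a1 had no count in any liver, and the other 8 had means of 0.1 to 3.7 counts. At this depth, changes in these 11 were not detectable.

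Partner chains of types I, IV, V and VI did not change in step. The log2 ratio of 2 chains within a library needs no scaling between libraries, and 6 ratios were compared between the 4 vehicle and 6 CCl4 livers and between the 5 NTC and 5 sgBap1 livers by exact two-sided permutation tests, 12 in all. The ratio of Col1a1 to Col1a2 was -1.30 and -1.10 in NTC-Veh, -0.65 and -1.43 in sgBap1-Veh, 0.26, 0.45 and 0.29 in NTC-CCl4, and 0.49, 0.44 and 0.30 in sgBap1-CCl4. Col1a1 had fewer estimated counts than Col1a2 in every vehicle liver and more in every CCl4 liver. The mean log2 ratio was -1.12 ± 0.34 (SD, n = 4) in vehicle and 0.37 ± 0.10 (SD, n = 6) after CCl4 (exact permutation p = 0.00476, the smallest these groups can give, adjusted p = 0.0114).

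The ratio of Col3a1 to Col1a1 was 1.94 ± 0.24 (SD, n = 4) in vehicle and 0.63 ± 0.14 (SD, n = 6) after CCl4. That of Col5a1 to Col5a2 was 1.44 ± 0.20 (SD, n = 4) in vehicle and 0.57 ± 0.18 (SD, n = 6) after CCl4, and that of Col6a3 to Col6a1 was -0.02 ± 0.20 (SD, n = 4) in vehicle and 1.30 ± 0.20 (SD, n = 6) after CCl4. Each of these 3 had the same exact permutation p of 0.00476 and adjusted p of 0.0114, with all CCl4 livers on one side of all vehicle livers. Col4a1 to Col4a2 moved by only 0.30 and was 0.49 ± 0.09 (SD, n = 4) in vehicle and 0.80 ± 0.04 (SD, n = 6) after CCl4, but also without overlap (exact permutation p = 0.00476, adjusted p = 0.0114). Col6a1 to Col6a2 was 0.91 ± 0.14 (SD, n = 4) in vehicle and 0.60 ± 0.15 (SD, n = 6) after CCl4 and overlapped between treatments (exact permutation p = 0.0143, adjusted p = 0.0286). This last change was -0.38 to -0.26 when 1 library was left out, and lost its call without either sgBap1-Veh liver, NTC-Veh replicate 1 or any NTC-CCl4 liver (adjusted exact permutation p up to 0.0714). A ratio of counts also depends on the length of the transcripts in use, so its change, not its height, is comparable between genes. No ratio passed between guides, with differences of -0.18 to 0.11 (lowest exact permutation p = 0.54, adjusted p = 0.925). Each of these guide groups holds both vehicle and CCl4 livers. With guides permuted within each treatment, an alternative chosen after seeing the data, the differences were -0.19 to 0.12 (lowest exact permutation p = 0.117, adjusted p = 0.7, where 0.0167 is the smallest p possible).

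**Figure D4:**
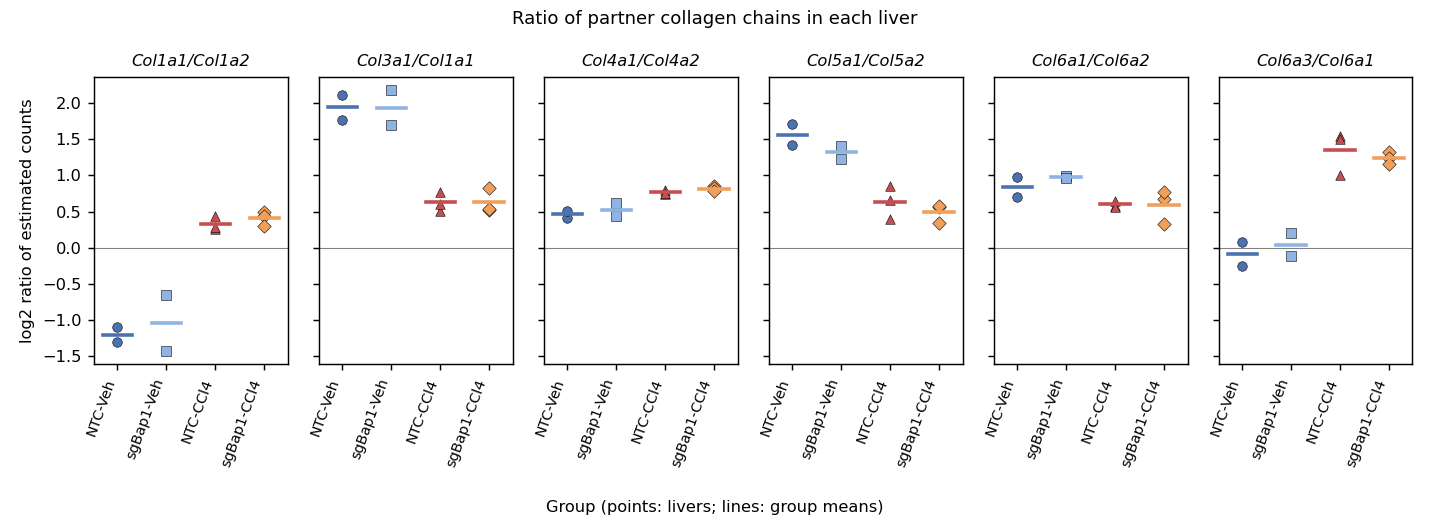
Log2 ratio of estimated counts (vertical axis) of 6 pairs of collagen chains in each liver (points), by group (horizontal axis), with group means as lines. Col1a1/Col1a2 lies between -1.43 and -0.65 in vehicle and between 0.26 and 0.49 in CCl4 livers, whereas the guides lie at like heights within each treatment.

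The Bap1 guide gave no call among the collagen genes, with or without injury. In sgBap1-Veh against NTC-Veh, 0 of the 33 genes passed in edgeR, against 0.523% of all tested genes, and 1 had an unadjusted p under 0.05 (Col11a2, 0.74 ± 0.31, adjusted p = 0.367). In sgBap1-CCl4 against NTC-CCl4, 0 of 33 passed (0.253% of all genes), and 2 had an unadjusted p under 0.05 (Col27a1, -0.67 ± 0.23, adjusted p = 0.254, and Col6a5, 4.31 ± 1.48, adjusted p = 0.275). The value of Col6a5 without sgBap1-CCl4 replicate 2 was 1.52 ± 0.88 (adjusted p = 0.631). The interaction gave 0 of 33 genes (0% of all genes) and none at an unadjusted p under 0.05. The mean guide effect over both treatments, 5 livers against 5, gave 0 of 33 (0.529% of all genes), with Col14a1 (0.34 ± 0.11, adjusted p = 0.188) and Col23a1 (1.06 ± 0.48, adjusted p = 0.312) under an unadjusted p of 0.05. DESeq2's Wald test also called 0 collagen genes in these 4 comparisons, with 3, 3, 4 and 1 at an unadjusted p under 0.05. Over all genes it called 548, 480, 411 and 675. Shares of all genes under an unadjusted p of 0.05 were not taken, so the unadjusted counts are not read as results about collagens.

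The estimates after CCl4 leaned upward through 1 liver. The log2 fold changes of the 33 genes had a median of 0.46 in sgBap1-CCl4 against NTC-CCl4, with 26 of 33 above 0, beside a median of 0.0018 over all tested genes. Without sgBap1-CCl4 replicate 2 the median was -0.08, with 12 of 33 above 0 and 0 called. For Col1a1 the value went from 0.85 ± 0.64 (adjusted p = 0.619) to -0.13 ± 0.46 (adjusted p = 0.961), for Col3a1 from 0.81 ± 0.55 to -0.11 ± 0.31, and for Col6a3 from 0.52 ± 0.47 to -0.24 ± 0.24. The log2 fold change was lower without this liver in 31 of the 33 genes, and the fibrillar chains were above 0 in 7 of 9 with it and 1 of 9 without it. This liver was the highest of the 6 CCl4 livers for 27 of the 33 genes, so lower values without it were largely fixed in advance. Col27a1 was below NTC-CCl4 either way (-0.67 ± 0.23 with it and -0.63 ± 0.28 without it) but did not pass. Leaving out sgBap1-CCl4 replicate 3 instead gave 0 calls, with 11 of 33 at an unadjusted p under 0.05 (2 with all livers). Leaving out replicate 1 gave 0 calls and 3 such genes. Over all tested genes, 27 passed without replicate 3 and 2 without replicate 1. The share of all genes at an unadjusted p under 0.05 was not taken, so the 11 and 3 are not read as particular to collagens. In vehicle, where no CCl4 liver is compared, the 33 genes had a median of 0.21 (24 of 33 above 0, 9 of 9 fibrillar chains). The median over all genes was 0.02, and Col1a1 was at 0.61 ± 0.88. With 2 livers a group, a change well above its error could still fail to pass. The collagen receptor gene Lair1, at 1.23 ± 0.23 in this comparison, had an adjusted p of 0.0506. The absence of calls thus does not exclude collagen changes as large as their errors or larger.

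**Figure D5:**
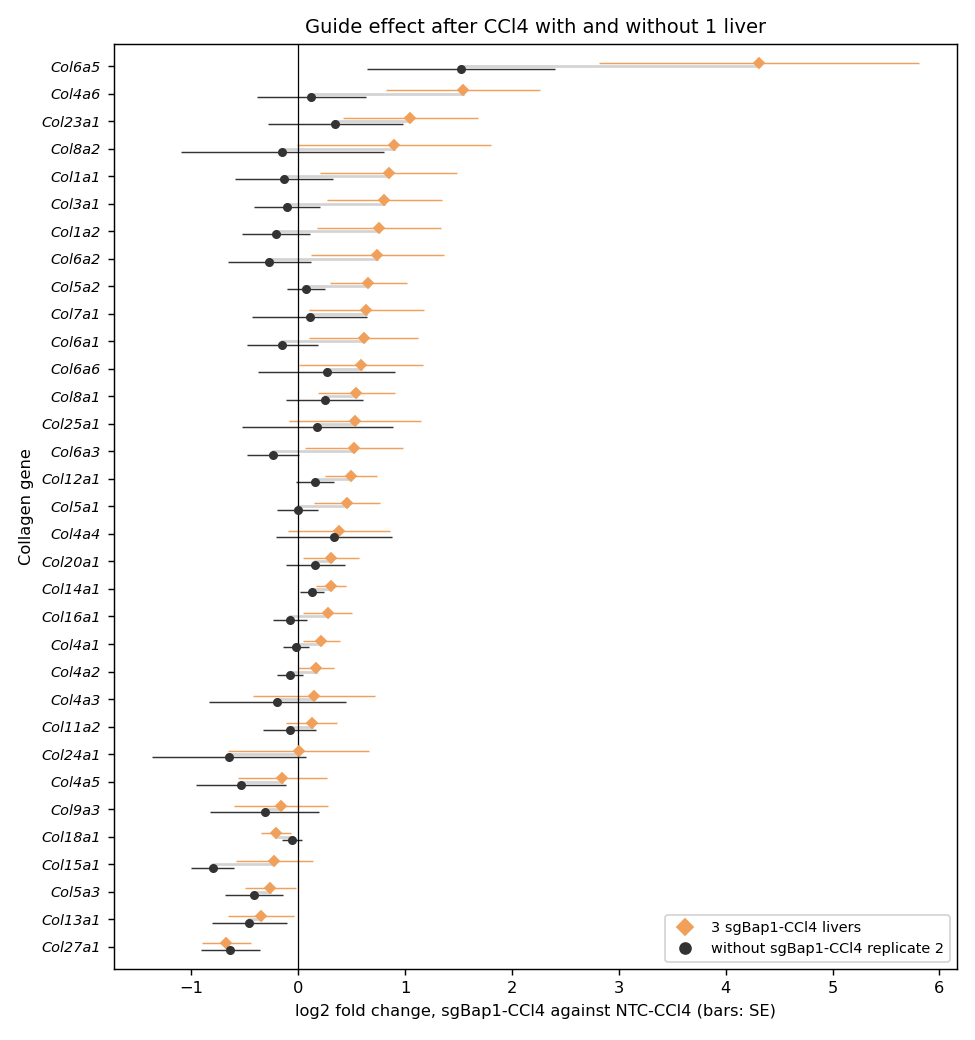
Log2 fold change of sgBap1-CCl4 against NTC-CCl4 (horizontal axis, bars are SE) of the 33 tested collagen genes (vertical axis), with all 3 sgBap1-CCl4 livers (diamonds) and without replicate 2 (circles). The median goes from 0.46 to -0.08, and 31 of the 33 values are lower without this liver. It was the highest of the 6 CCl4 livers for 27 of the 33 genes, so this direction was largely fixed in advance.

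The genes that make, trim and crosslink collagen were higher after CCl4 where they passed, with few exceptions. The counts stand beside 27.5% higher and 26.3% lower over all tested genes with NTC, and 29.0% and 27.7% with sgBap1, and those of the fibril-binding proteins came nearest to these shares. Of 18 tested genes for modification and folding, 12 rose with NTC and 13 rose and 1 fell with sgBap1 (medians 0.99 and 1.4). Serpinh1, the collagen chaperone, was at 10.3 and 11.6 CPM in the NTC-Veh livers, 16 and 12.2 in sgBap1-Veh, 77.5, 89.3 and 67.5 in the NTC-CCl4 livers, and 95.8, 167 and 69.3 in sgBap1-CCl4 and rose by 2.84 ± 0.37 and 2.97 ± 0.37 (adjusted p = 0.000315 and 0.000226), and Plod2, a lysyl hydroxylase, rose by 1.90 ± 0.48 and 2.57 ± 0.49. Of 6 genes for procollagen cleavage, 4 rose and 1 fell with either guide. The one that fell was Bmp1, the C-proteinase (-0.64 ± 0.15 and -0.39 ± 0.15, adjusted p = 0.00368 and 0.0424). Of 5 crosslinking genes, 4 rose with NTC and 5 with sgBap1 (medians 3.40 and 3.50), led by Lox, lysyl oxidase, at 0.163 and 0.249 CPM in the NTC-Veh livers, 0.269 and 0.262 in sgBap1-Veh, 4.99, 4.62 and 5.78 in the NTC-CCl4 livers, and 5.89, 17.3 and 4.08 in sgBap1-CCl4 (4.62 ± 0.76 and 5.08 ± 0.75, adjusted p = 0.000942 and 0.000468). Of 9 collagen receptors, 6 and 7 rose, among them Ddr1, a receptor tyrosine kinase (2.39 ± 0.28 and 2.22 ± 0.29), and of 14 fibril-binding proteins 6 and 8 rose, among them Sparc (2.12 ± 0.25 and 2.04 ± 0.25). Decorin (Dcn), which coats fibrils, did not pass (0.22 ± 0.15 and 0.32 ± 0.15). Without sgBap1-CCl4 replicate 2, the calls with sgBap1 were 14 higher and 1 lower for modification and folding, 4 higher for cleavage, 5 for crosslinking, 7 for receptors and 8 for fibril-binding proteins. Plod2 was then at 1.98 ± 0.31 and Lox at 4.22 ± 0.31 with sgBap1, and Bmp1 at -0.28 ± 0.13 no longer passed (adjusted p = 0.109). The calls with NTC were then 13 higher and 1 lower, 5 higher and 1 lower, and 5, 7 and 7 higher.

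One gene of these lists, P4ha1, passed a guide comparison with all 10 livers. This catalytic chain of the prolyl hydroxylase that stabilises the collagen helix was at 8.25 and 8.45 CPM in the NTC-Veh livers, 13.5 and 11.4 in sgBap1-Veh, 21.6, 23.8 and 22.3 in the NTC-CCl4 livers, and 29.9, 37.5 and 28.4 in sgBap1-CCl4, and the mean guide effect was 0.54 ± 0.09 (adjusted p = 0.0448). Every sgBap1 liver exceeded every NTC liver of the same treatment, with or without sgBap1-CCl4 replicate 2, and without it the mean effect was 0.47 ± 0.07 (adjusted p = 0.0341). Within vehicle and within CCl4 the effect was 0.58 ± 0.15 and 0.50 ± 0.11, neither past the threshold (adjusted p = 0.122 and 0.101). Over all genes, the mean guide comparison called 90 in the main fit and 675 with DESeq2. It called 15 without NTC-CCl4 replicate 1 and 9 with the replicate number as a block. The call of P4ha1 was not followed in those other settings. Lair1, an inhibitory collagen receptor of immune cells, was at 1.23 ± 0.23 in sgBap1-Veh against NTC-Veh (adjusted p = 0.0506), and passed without sgBap1-CCl4 replicate 2 (adjusted p = 0.0466).

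Markers of the cells that could hold these transcripts are counted beside 27.5% of all tested genes called higher and 26.3% lower with NTC (53.8% either way). With sgBap1 these shares were 29.0% and 27.7% (56.7% either way). The lists are short and their counts were not tested against these shares. Counts such as 4 of 8 or 2 of 6 higher are therefore not read as above them. All 8 markers of activated stellate cells and myofibroblasts rose with either guide (medians 3.35 and 3.28). Their summed level was 26.4 to 38.0 CPM in vehicle and 205 to 439 CPM in CCl4 livers, highest in sgBap1-CCl4 replicate 2. Of 10 quiescent stellate markers, 5 rose and 4 fell with NTC, and 4 rose and 3 fell with sgBap1. Of 7 tested portal fibroblast markers 1 rose with NTC, and 1 rose and 1 fell with sgBap1, and their sum was at most 22.9 CPM except in sgBap1-CCl4 replicate 2, at 52.1 CPM. None of the 6 mesothelial markers was called. Among 4 vascular smooth muscle markers 1 fell with NTC, and 3 rose and 1 fell with sgBap1. Among 8 sinusoidal endothelial markers 4 rose with NTC, and 4 rose and 2 fell with sgBap1. Of 6 bile duct markers 2 rose with either guide, and of 8 macrophage markers 5 rose with NTC, and 4 rose and 2 fell with sgBap1. Only 3 of the 8 fat cell markers passed the filter, Cidec, Car3 and Adrb3. In the vehicle livers Car3 was at 612 to 1550 CPM and Adrb3 at 7.89 to 12.2 CPM, while Adipoq was at most 0.0272 CPM. Changes in these genes are therefore not read as changes in fat cells. Cidec rose and Car3 and Adrb3 fell with NTC, and 1 rose and 1 fell with sgBap1. In vehicle, 1 macrophage marker was higher with the Bap1 guide (Csf1r, 1.06 ± 0.18, adjusted p = 0.048), and 2 were without sgBap1-CCl4 replicate 2 (Csf1r and Lyz2, adjusted p = 0.0317 and 0.0458). Without sgBap1-CCl4 replicate 2, the calls with sgBap1 were 2 higher and 1 lower for vascular smooth muscle and 4 higher for sinusoidal endothelium. They were 3 higher and 1 lower for macrophages and 1 higher and 2 lower for the fat cell list. The other markers had the same counts as before. With NTC, 2 higher and 1 lower vascular smooth muscle markers and 2 higher portal fibroblast markers were then called, and the counts of the other markers did not move. The parts these cells play in the collagen values were not tested.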

How the data were processed

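Total RNA from mouse liver was sequenced from 10 animals as poly(A) libraries with a stranded kit. Per the submitters' processing notes and the study's methods, the authors aligned reads with STAR 2.7.6a to GRCm38 and quantified genes with Salmon 1.4.0, and they deposited 1 table of estimated counts per gene (expected counts, not normalised, of which 9.22% were not whole). Whether counting used strand is not given in the sources used here. Samples were grouped by the guide and treatment in their labels, with each animal as a replicate.

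Estimated counts were rounded and analysed with edgeR 4.0.16 in R 4.3.3 (limma 3.58.1): TMM normalisation, filterByExpr on the 4 groups (17015 of 55291 genes kept), 1 model of the 4 groups over all 10 livers, a robust quasi-likelihood F test, two-sided, and Benjamini-Hochberg adjustment over all tested genes at a threshold of 0.05. Errors of log2 fold changes are the absolute log2 fold change divided by the square root of F. The comparisons of CCl4 with vehicle under each guide and of the guides within each treatment share livers. CPM are relative to TMM-scaled library sizes. Chain ratios used counts plus 0.5 and exact two-sided permutation tests. The scripts were tested on simulated data. Alternatives were library size alone or DESeq2 size factors, other filters, DESeq2 1.42.0, the replicate number as a block, the compared groups alone, each library left out and, chosen after seeing the data, library sizes over all genes and guides permuted within each treatment for the ratios. Positions and lengths are from GENCODE vM21 (GRCm38), whereas the authors used a later release of the same build.

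Every collagen gene could be named. Values in every liver were given for genes called in any comparison, up to the 20 with the highest mean count, and for partner chains. Other genes came from fixed lists of collagen biosynthesis and cell type markers. The members and lists were chosen with earlier results of these data known. Depth of 33047900 to 52199900 counts puts the limit of 3 counts at 0.0511 to 0.112 CPM, which covers counting error only. Replicate libraries of a group differed by more than counting error.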

Additional observations from a re-analysis of the deposited data

How the results depend on the processing

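The number of collagen genes called with CCl4 was 15 to 18 with NTC and 16 to 20 with sgBap1 under the other normalisations, filters, models and DESeq2, and 12 to 18 and 13 to 21 when 1 library was left out. The lowest values came without NTC-Veh replicate 1 and without sgBap1-Veh replicate 2. Of the 18 and 20 calls, 10 and 11 held in all 18 settings, and no called gene changed sign. The calls lost most often were Col5a3 with sgBap1 and Col4a4 and Col6a6 with NTC. The replicate numbers do not pair the livers (correlations of deviations between same-numbered livers -0.149 to 0.102), and with the replicate number as a block 16 genes were called with NTC and 18 with sgBap1. The 4 guide comparisons called 0 collagen genes in every setting, with the replicate block too. Over all genes they called 89, 43, 0 and 90 in edgeR (vehicle, CCl4, interaction and mean), 548, 480, 411 and 675 with DESeq2, 177, 113, 103 and 226 with no filter beyond 1 count, 47, 37, 8 and 51 with library size alone, and 1, 3, 0 and 9 with the block. Those within vehicle and within CCl4 were 37 and 27 when fitted on the compared groups alone. The causes were not tested.

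Signs of guide effects changed when 1 library was left out, with none past the threshold. In sgBap1-Veh against NTC-Veh the log2 fold change ranged over -0.068 to 1.29 for Col1a1, -0.025 to 0.92 for Col1a2, -0.052 to 0.33 for Col4a2, -0.084 to 0.18 for Col5a1 and -0.0067 to 0.70 for Col6a3. In sgBap1-CCl4 against NTC-CCl4 it ranged over -0.13 to 1.24 for Col1a1, -0.21 to 1.13 for Col1a2, -0.11 to 1.16 for Col3a1, -0.021 to 0.38 for Col4a1, -0.076 to 0.31 for Col4a2, -0.0056 to 0.72 for Col5a1 and -0.24 to 0.84 for Col6a3, with the negative values without sgBap1-CCl4 replicate 2. The difference in log2 ratio between guides ranged over -0.14 to 0.43 for Col1a1/Col1a2, -0.26 to 0.24 for Col3a1/Col1a1, -0.0029 to 0.12 for Col4a1/Col4a2, -0.014 to 0.15 for Col6a1/Col6a2 and -0.28 to 0.20 for Col6a3/Col6a1. With guides permuted within each treatment, that of Col6a3/Col6a1 was 0.0072 (adjusted exact permutation p = 0.983) in place of -0.017. The change of Col6a1 to Col6a2 with CCl4 ranged over -0.38 to -0.26, and passed in 4 of the 10 (adjusted exact permutation p up to 0.0714). The other 5 changes with CCl4 kept their direction and call.

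With library size alone, the mean summed collagen level was 1187 CPM in NTC-Veh, 1110 in sgBap1-Veh and 1667 in NTC-CCl4, and without Col18a1 183.2, 224.2 and 1082 CPM. With 1 library left out, the sum was 1434 to 1530 CPM in NTC-Veh and 1353 to 1406 in sgBap1-Veh, and without Col18a1 268.3 to 288.4 in sgBap1-Veh. In sgBap1-CCl4 the sum was 1354 to 2039 CPM and, without Col18a1, 870.2 to 1631 CPM, the lowest without replicate 2, and with library size alone 2102 and 1596 CPM. Depth limits the 11 collagen genes that were not well measured and those with means near 10 counts, and the 2 vehicle livers per guide limit the errors.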
